A study of Mus musculus with 15 samples.

Results

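The genes described here encode the membrane enzymes that lengthen fatty acids in the endoplasmic reticulum: the elongases Elovl1, Elovl2, Elovl4, Elovl5, Elovl6 and Elovl7, the 3-hydroxyacyl-CoA dehydratases Hacd1, Hacd2 and Hacd3, and the trans-2-enoyl-CoA reductase Tecr. They were chosen by name, through the RefSeq identifier that the scanner files give for each probe. All 10 were on the array, with 14 probes, and all 10 passed the filter on dim probes, so they make up 10 of the 22562 genes tested. The left hemibrain of male C57BL/6j mice was profiled after 24 weeks on 1 of 3 diets of equal caloric content, started at 3 weeks of age. What varied was the supply of polyunsaturated fatty acids (PUFA): ERD, an enriched diet, had 7 parts of n-3 to 1 part of n-6, BLD had equal parts (1 to 1), and STD, the ordinary laboratory diet, had 1 part of n-3 to 6 of n-6. Each diet had 5 arrays, with hemibrain RNA in the red dye (Cy5) and RNA pooled from 11 cell lines of mouse as a reference in the green dye (Cy3) on every array. No genetic change was named for any group, and the titles call samples of all 3 diets controls, so the diets were taken from the diet label.

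Elongation adds a pair of carbons to a fatty acyl-CoA per round, in a cycle of condensation with malonyl-CoA, reduction, dehydration and a last reduction. The elongases carry out the condensation and set which chains are lengthened, whereas the dehydratases and Tecr serve the later steps for chains of many lengths. Elovl2 and Elovl5 act on PUFA of both the n-3 and the n-6 series and so work on the fatty acids that the diets vary. Elovl4 makes very long chains found in brain and retina.

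In Cy5, 17720 to 31991 spots of an array stood well above background, the fewest on ERD 1, and 0 spots were saturated. The arrays ERD 1, BLD 3 and ERD 4 were the least correlated with the others, with a median r across genes of 0.88, 0.91 and 0.914. The labelled tissue was checked against marker genes. The 10 neuronal and 10 astrocyte markers and the 10 oligodendrocyte markers were each above background on at least 13 of 15 arrays, while those of tissues outside the brain were mostly dim. Of 5 muscle markers, Ckm and Mylpf were above background on 0 arrays, Myh4 and Tnnt3 on 2 each and Acta1 on all 15. The 4 retina and lens markers reached it on 0 (Gnat1), 1 (Pde6b), 4 (Sag) and 5 (Cryaa) arrays. The summed Cy5 signal of the neuronal markers, on the log2 scale, was 15.18 to 15.60 in ERD, 15.16 to 15.71 in BLD and 15.17 to 15.42 in STD. That of the astrocyte markers was 14.37 to 14.94 in ERD, 14.48 to 15.42 in BLD and 14.93 to 15.61 in STD, so that the ERD and STD ranges met only at their ends. Of the 10 astrocyte markers 8 had a lower mean ratio in ERD than in STD, as did 47.1% of all genes. Gfap and Aqp4 were higher in ERD, with log2 changes of 1.04 and 0.76, and 0 of the 10 were called in limma. The mean log2 ratio over these markers was 3.12 to 3.51 in ERD and 3.31 to 3.53 in STD, ranges that overlapped. The summed Cy5 signal of the oligodendrocyte markers was 14.01 to 14.63 in ERD, 13.96 to 14.3 in BLD and 13.67 to 14.41 in STD. That of the 3 red blood cell markers measured was 11.77 to 12.86 in ERD, 11.64 to 13.73 in BLD and 11.18 to 11.70 in STD. The lowest ERD array thus lay above the highest STD array. The mean log2 ratio over these 3 markers was 2.77 to 3.24 in ERD and 2.77 to 3.25 in STD, ranges that overlapped. The part of these cells in the differences between diets was not tested. In whole hemibrain, fewer cells of a type and less RNA per cell cannot be told apart.

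No member passed the test between any 2 diets. Values are log2 ratios of hemibrain over the reference, and a gene was called at a Benjamini-Hochberg adjusted p under 0.05 in limma over all 22562 genes. In ERD against STD, 0 of 10 members were called, where 0.217% of all genes were (49 genes, 25 lower and 24 higher). In BLD against STD, 0 of 10 were called against 0.00886% of all genes (2 genes), and in ERD against BLD 0 of 10 against 0% of all genes. The moderated F test over the 3 diets called 0 of 10 members and 0.0488% of all genes (11 genes).

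At an unadjusted p under 0.05 in limma, Elovl4 and Hacd1 passed in ERD against STD, 2 of 10 members against 14.6% of all genes. None of the 10 passed in BLD against STD, against 10.9% of all genes. Elovl4 and Elovl5 passed in ERD against BLD, 2 of 10 against 10.4% of all genes, and Elovl4 and Hacd1 passed in the F test, 2 of 10 against 13.5% of all genes. With 10 members, these counts of 0 to 2 are near what the shares of all genes give. The ranges of the 5 arrays overlapped between diets for all 10 members in each comparison, whereas they were separate for 3.79% of all genes in ERD against STD, 2.89% in BLD against STD and 1.36% in ERD against BLD.

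The mean was lower in ERD than in STD for 8 of 10 members, where it was lower for 47.1% of all genes, with a median log2 change of -0.12 over the members and 0.02 over all genes. In BLD against STD it was lower for 6 of 10 members and 39.5% of all genes, with medians of -0.11 and 0.05. In ERD against BLD it was lower for 7 of 10 members and 58.1% of all genes, with medians of -0.18 and -0.04. When each array was centred on its median in place of loess, the median of all genes moved to 0.18 in BLD against STD and to -0.20 in ERD against BLD. Relative to the median of all genes, the members' median was then -0.06 and -0.26, against -0.17 and -0.14 with loess, and the number of members below 0 became 2 of 10 and 10 of 10. The same centring put 10 of 10 members below 0 in ERD against STD, where the median of all genes was -0.02. Relative to that median, the members' median was -0.20, against -0.14 with loess, and 0 of 10 were called. Median centring put 7 of 10 at an unadjusted p under 0.05 in ERD against BLD, where 4569 of the 22562 genes were. With the median of all genes at -0.20 in ERD against BLD, most genes lay below 0 there as well. The share of all genes below 0 under this centring was not counted, so the counts of members below 0 have no share to be set against.

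**Figure D1:**
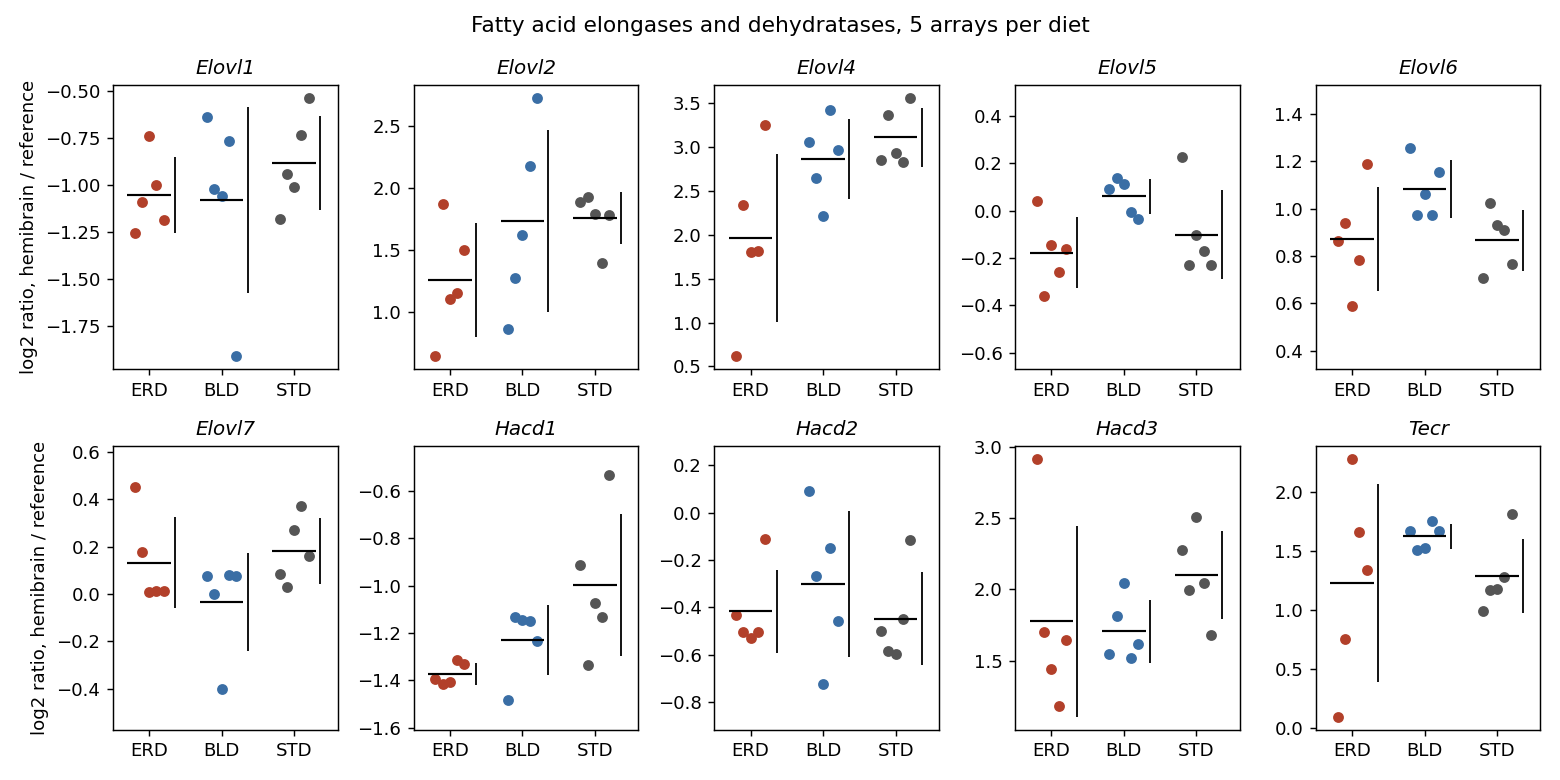
Log2 ratio of hemibrain to reference (vertical axis, a separate scale in each panel) for the 10 members on the 5 arrays of each diet. Points are arrays, horizontal bars are means and vertical lines are 1 SD; the 5 ERD arrays of Hacd1 lie close together around -1.37, and for Elovl4 the ERD arrays spread from 0.62 to 3.25.

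The upstream sequence is shown for Elovl4, Hacd1 and Elovl5, the members with an unadjusted p under 0.05 in a comparison, so that their promoters can be set side by side. The sequences are the 250 bases before the annotated start, from RefSeq on GRCm38.p6, written 5′ to 3′ on the gene's strand, with all 10 members matched in that table. Capitals mark matches on either strand to GGGCGG (the GC box), CCAAT (the CCAAT box), CACGTG (an E-box), AGGTCA (a motif of nuclear receptors) or TCACNCCAC (a sterol regulatory element).
Elovl4, chr9:83806306-83806555, minus strand: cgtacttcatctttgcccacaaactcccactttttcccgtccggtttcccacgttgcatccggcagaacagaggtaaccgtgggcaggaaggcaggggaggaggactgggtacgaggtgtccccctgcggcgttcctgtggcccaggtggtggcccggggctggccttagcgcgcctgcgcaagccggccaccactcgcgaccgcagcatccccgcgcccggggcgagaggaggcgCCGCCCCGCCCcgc
Hacd1, chr2:14056036-14056285, minus strand: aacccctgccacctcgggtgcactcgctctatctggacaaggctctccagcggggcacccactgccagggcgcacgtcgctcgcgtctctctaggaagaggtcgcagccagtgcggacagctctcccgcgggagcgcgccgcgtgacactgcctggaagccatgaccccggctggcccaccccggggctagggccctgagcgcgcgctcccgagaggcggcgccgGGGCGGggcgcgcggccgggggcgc
Elovl5, chr9:77917115-77917364, plus strand: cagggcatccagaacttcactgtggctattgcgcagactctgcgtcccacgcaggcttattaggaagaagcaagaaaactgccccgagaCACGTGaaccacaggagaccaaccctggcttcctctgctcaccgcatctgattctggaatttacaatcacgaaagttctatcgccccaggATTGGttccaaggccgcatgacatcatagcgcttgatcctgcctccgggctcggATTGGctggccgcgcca
The Elovl4 window holds 2 matches to GGGCGG on the opposite strand, which share 1 base, and the Hacd1 window holds 1 match on the gene's strand. The Elovl5 window holds 0 matches to GGGCGG, 2 to CCAAT and 1 to CACGTG. A match is a match of letters and was not measured as a binding site.

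Across the members, GGGCGG was found in the window of 8 of 10 genes and in 32.7% of all 32851 promoter windows of the same length. CCAAT was found for 4 of 10 members (Elovl1, Elovl5, Hacd3 and Tecr) and in 33.8% of all windows, CACGTG for 2 of 10 (Elovl5 and Hacd3) and in 6.02%, and AGGTCA for 2 of 10 (Elovl1 and Elovl6) and in 14.0%. TCACNCCAC was found for 0 of 10 members and in 1.05% of all windows. Elovl1 and Elovl2 have 2 annotated starts each, and a motif was counted if either window held it. The members' windows were 55.6% to 87.2% G and C, against a median of 52.4% over all windows.

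Elovl4, the elongase of very long chain fatty acids, had the lowest p of the 10 members in ERD against STD. Its log2 ratios were 0.62, 2.34, 1.80, 1.82 and 3.25 in ERD, 3.05, 2.64, 2.21, 3.42 and 2.97 in BLD and 2.85, 3.36, 2.93, 2.83 and 3.56 in STD. Of the ERD arrays 4 lay below the lowest STD array and ERD 5 lay within the STD range, so the diets overlapped. The means were 1.96 ± 0.95 in ERD, 2.86 ± 0.46 in BLD and 3.10 ± 0.33 in STD (SD, n = 5). The log2 change in ERD against STD was -1.14 ± 0.36 (SE), a mean ratio 2.21-fold lower in ERD, and it missed the threshold in limma (unadjusted p = 0.00648, adjusted p = 0.188). The 95% interval ran from -1.91 to -0.37. In ERD against BLD the change was -0.89 ± 0.36 (limma, unadjusted p = 0.0261, adjusted p = 0.446), and in BLD against STD it was -0.25 (adjusted p = 0.829).

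The size of the Elovl4 difference in ERD against STD moved with the arrays and the probe used. Without ERD 5 the change was -1.46, with an adjusted p of 0.0625 in limma, the lowest of any member under any of 29 alternative settings. Without ERD 1, the array with the fewest spots above background, it was -0.81 (adjusted p = 0.263), and the part of that array's low signal was not tested. Within the 3 slides that held an array of both diets, the difference was -1.03, -1.05 and 0.42. With slide as a fixed block it was -0.71 (limma, unadjusted p = 0.135). The hemibrain channel alone gave -0.70 (limma, unadjusted p = 0.0103, adjusted p = 0.206). For ERD against BLD the Elovl4 change was -0.29 in the hemibrain channel alone (limma, unadjusted p = 0.24) and -0.56 without ERD 1 (unadjusted p = 0.0803), and both miss the unadjusted level.

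The other Elovl4 probe gave a smaller difference. Its log2 ratios were 0.68, 2.58, 1.89, 1.88 and 1.88 in ERD, 1.54, 2.03, 1.98, 2.84 and 3.04 in BLD and 2.23, 2.30, 1.64, 1.87 and 1.52 in STD. The ERD arrays other than ERD 1 lay within or above the STD range. The change of this probe was -0.13 ± 0.33 (SE) in ERD against STD, 0.38 in BLD against STD and -0.51 in ERD against BLD (limma, unadjusted p = 0.701, 0.266 and 0.142). The 2 probes' changes in ERD against STD differed by -1.01 (2-sided exact permutation test, p = 0.0397, and 0.254 adjusted over 12 such tests, where the smallest p possible is 0.00794). The reference gave little Elovl4 signal: the brighter probe was above background in Cy3 on 3 ERD, 3 BLD and 5 STD arrays and the other on 1, 2 and 2, so on the remaining arrays the ratio is taken over a reference not well above background. Both probes were above background in Cy5 on all 15 arrays.

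**Figure D2:**
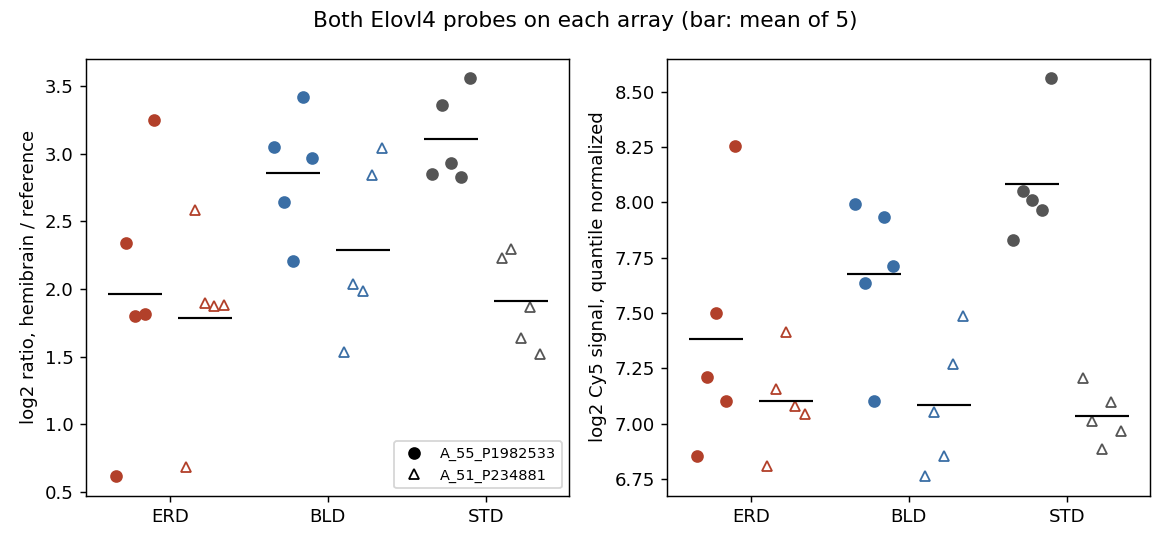
Both Elovl4 probes on each array by diet, as log2 ratio to the reference (left) and as log2 Cy5 signal (right), with filled circles for the brighter probe A_55_P1982533, open triangles for A_51_P234881 and bars for the mean of 5 arrays. The brighter probe averages 1.96 in ERD and 3.10 in STD, and the other 1.78 and 1.91.

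Elovl2, which lengthens long PUFA on the way to docosahexaenoic acid, did not pass in any comparison. The log2 ratios were 0.64, 1.87, 1.1, 1.15 and 1.5 in ERD, 0.86, 1.27, 1.62, 2.18 and 2.73 in BLD and 1.89, 1.92, 1.79, 1.39 and 1.78 in STD. Of the ERD arrays 3 lay below the lowest STD array and 2 within the STD range, and the BLD arrays spread below and above it. The change in ERD against STD was -0.50 ± 0.30 (SE), with a 95% interval from -1.13 to 0.13 (limma, adjusted p = 0.441), in BLD against STD -0.02 (adjusted p = 0.984) and in ERD against BLD -0.48 (adjusted p = 0.584). The reference was not above background for Elovl2 on any of the 15 arrays. With Cy5 alone the change was -0.15 in ERD against STD, -0.23 in BLD against STD and 0.08 in ERD against BLD.

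Elovl5, which acts on shorter PUFA of both series, did not pass in any comparison. Its log2 ratios were 0.04, -0.36, -0.14, -0.26 and -0.16 in ERD, 0.09, 0.14, 0.11, -0.01 and -0.03 in BLD and 0.22, -0.23, -0.10, -0.17 and -0.23 in STD. The BLD arrays were the highest as a group, but ERD 1 and STD 1 reached into or above their range. The change in ERD against BLD was -0.24 ± 0.11 (SE; limma, unadjusted p = 0.0445, adjusted p = 0.477), a level 1.18-fold lower, with a 95% interval from -0.47 to -0.01. In ERD against STD it was -0.08 ± 0.11, with an interval from -0.31 to 0.15, and in BLD against STD it was 0.16 ± 0.11 (limma, adjusted p = 0.772 and 0.585). The ERD against BLD difference had an unadjusted p under 0.05 in 12 of 29 alternative settings. Several of these settings, such as those without an STD array, left the change at -0.24 and altered only the spread used in the test. With median centring the change was -0.55 in ERD against BLD (limma, unadjusted p = 0.00288, adjusted p = 0.127). In BLD against STD it was then 0.37 (limma, unadjusted p = 0.0304, adjusted p = 0.28). The median of all genes under that centring was -0.20 and 0.18 in these comparisons.

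Elovl1, Elovl6 and Elovl7 handle saturated and monounsaturated chains, Elovl6 the shorter and Elovl1 and Elovl7 the longer ones. The means of Elovl6 were 0.87 ± 0.22 in ERD, 1.08 ± 0.12 in BLD and 0.87 ± 0.13 in STD (SD, n = 5). Its change was 0.01 in ERD against STD, 0.22 ± 0.12 (SE) in BLD against STD and -0.21 ± 0.12 in ERD against BLD (limma, adjusted p = 0.986, 0.487 and 0.549). The highest ERD array, at 1.19, lay within the BLD range of 0.97 to 1.26, as did the highest STD array, at 1.02.

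Elovl1 averaged -1.05 ± 0.20 in ERD, -1.08 ± 0.50 in BLD and -0.88 ± 0.25 in STD (SD, n = 5), lower in hemibrain than in the reference on all 15 arrays. Its lowest value, -1.91, came from array BLD 5, and the other BLD arrays lay between -1.06 and -0.64. Its change was -0.17 in ERD against STD, -0.20 in BLD against STD and 0.03 in ERD against BLD (limma, adjusted p = 0.718, 0.743 and 0.977). A dimmer Elovl1 probe, above background on 14 of 15 arrays in Cy5, gave 0.16, 0.28 and -0.11, opposite in sign each time. Elovl7 averaged 0.13 ± 0.19 in ERD, -0.03 ± 0.21 in BLD and 0.18 ± 0.14 in STD, and its changes were -0.05, -0.22 and 0.17 (limma, adjusted p = 0.881, 0.514 and 0.659).

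Hacd1, a dehydratase best known from skeletal and heart muscle, had the lowest p among the dehydratases. Its log2 ratios were -1.40, -1.41, -1.41, -1.32 and -1.33 in ERD, -1.48, -1.13, -1.15, -1.15 and -1.24 in BLD and -0.91, -1.33, -1.07, -1.13 and -0.53 in STD. The ERD arrays lay close together, from -1.41 to -1.32, with 4 of the STD arrays above all of them and STD 2 among them. The means were -1.37 ± 0.05 in ERD, -1.23 ± 0.15 in BLD and -1.0 ± 0.30 in STD (SD, n = 5). The change in ERD against STD was -0.38 ± 0.13 (SE), a level 1.30-fold lower in ERD with a 95% interval from -0.65 to -0.10, and it missed the threshold in limma (unadjusted p = 0.0108, adjusted p = 0.218). In BLD against STD it was -0.23 (adjusted p = 0.5) and in ERD against BLD -0.14 (adjusted p = 0.732).

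The Hacd1 difference in ERD against STD was of similar size in the hemibrain channel alone, at -0.42 (limma, unadjusted p = 0.00641, adjusted p = 0.174), and the reference channel alone gave -0.07. Within the 3 slides that held both diets it was -0.08, -0.50 and -0.20. With 1 array left out the Hacd1 difference ran from -0.46 to -0.26. The latter was without STD 5, the highest STD array (limma, unadjusted p = 0.0299, adjusted p = 0.338). The unadjusted p of Hacd1 in ERD against STD stayed under 0.05 in 28 of 29 alternative settings, and with slide as a fixed block the change was -0.25 (limma, unadjusted p = 0.0822). Several of these settings, such as those without a BLD array, left the change at -0.38 and altered only the spread used in the test. The hemibrain channel alone gave -0.40 for Hacd1 in BLD against STD (limma, unadjusted p = 0.00932, adjusted p = 0.388). With Cy5 alone, limma called 61, 2 and 0 genes of the 22562 in ERD against STD, BLD against STD and ERD against BLD, and 0 members in each.

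Hacd2 and Hacd3 are the dehydratases with a broad tissue range. Hacd2 averaged -0.42 ± 0.17 in ERD, -0.30 ± 0.31 in BLD and -0.45 ± 0.20 in STD (SD, n = 5), and its changes were 0.03 in ERD against STD, 0.15 in BLD against STD and -0.12 in ERD against BLD (limma, adjusted p = 0.944, 0.74 and 0.822). Its 2 dimmer probes gave 0.13 and 0.01 in ERD against STD and 0.34 and -0.25 in BLD against STD, so they differed in sign in the latter. Hacd3 had log2 ratios of 2.92, 1.70, 1.44, 1.18 and 1.64 in ERD, 1.54, 1.81, 2.05, 1.52 and 1.61 in BLD and 2.27, 2.0, 2.51, 2.05 and 1.68 in STD. Array ERD 1 held the highest value of all 15 and ERD 4 the lowest. The Hacd3 change was -0.33 ± 0.26 (SE) in ERD against STD, -0.39 in BLD against STD and 0.07 in ERD against BLD (limma, adjusted p = 0.573, 0.57 and 0.951), and without ERD 1 the first was -0.61 and without ERD 4 it was -0.18. Within the 3 slides that held an ERD and a STD array, the Hacd3 difference was -0.30, -0.84 and -0.40.

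Tecr, the enzyme of the last reduction, spread most among the ERD arrays. Its log2 ratios were 0.09, 0.75, 2.28, 1.66 and 1.34 in ERD, 1.67, 1.51, 1.52, 1.75 and 1.67 in BLD and 0.99, 1.17, 1.18, 1.28 and 1.81 in STD. ERD held both the lowest and the highest value, and its SD was 0.84 against 0.10 in BLD and 0.31 in STD. The change was -0.06 ± 0.30 (SE) in ERD against STD, with a 95% interval from -0.70 to 0.57, 0.34 in BLD against STD and -0.40 in ERD against BLD (limma, adjusted p = 0.946, 0.694 and 0.659). Without ERD 1 the ERD against STD change was 0.22 and without ERD 3 it was -0.33. The ERD against BLD change of Tecr ran from -0.66 to -0.12 with 1 array left out, the latter without ERD 1, and was -0.79 with median centring.

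**Figure D3:**
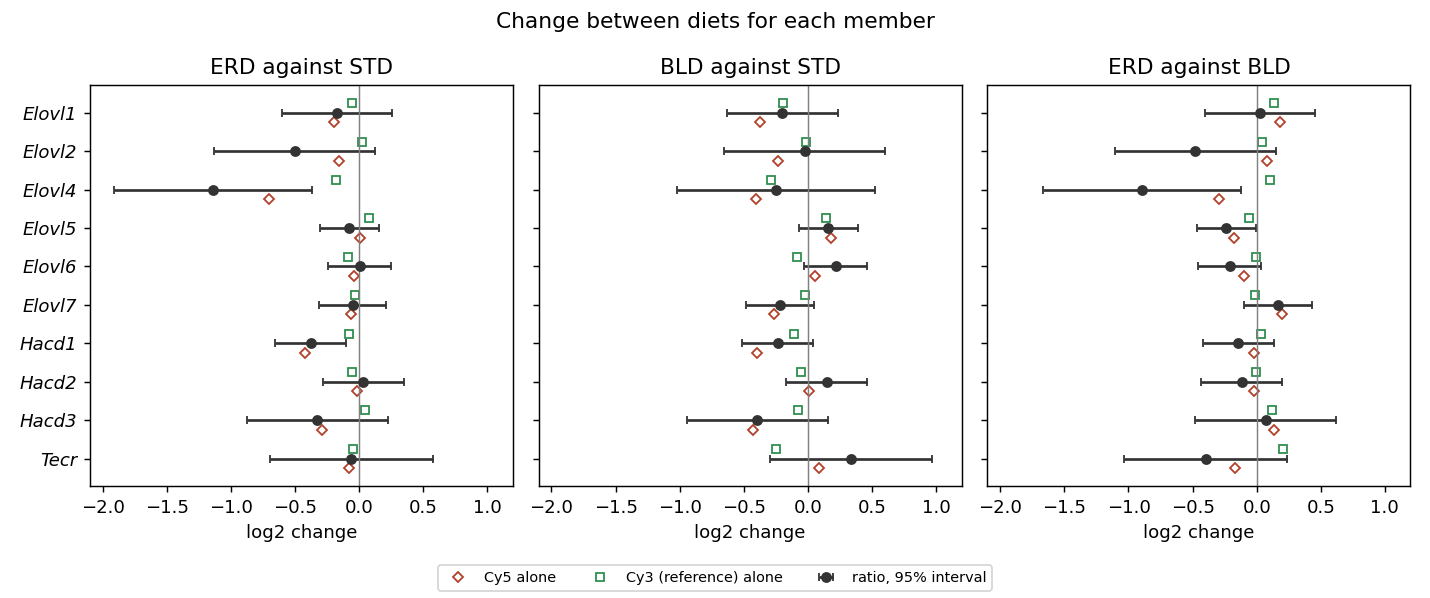
Log2 change between diets for the 10 members, with the ratio and its 95% interval (circles) and the hemibrain (diamonds) and reference (squares) channels alone. The interval of the ratio leaves out 0 for Elovl4 and Hacd1 in ERD against STD and for Elovl4 and Elovl5 in ERD against BLD, before adjustment for the 22562 genes tested.

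The reference RNA was the same on every array, and its channel alone called 0 members in any comparison in limma, and 5 of the 22562 genes in BLD against STD, with 0 in each of the other comparisons. In BLD against STD it gave -0.28 for Elovl4 (limma, unadjusted p = 0.0225, adjusted p = 0.316) and 0.14 for Elovl5 (unadjusted p = 0.0384, adjusted p = 0.316). All 4 arrays of the second scan day were ERD 4, BLD 2, BLD 3 and BLD 4, so STD was on the first day alone. Among the arrays of the first day the Elovl4 difference was -1.1 in ERD against STD and the Hacd1 difference -0.39.

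No pair of members was called as correlated across arrays. For 45 pairs, correlations were computed over the 15 arrays after each diet's mean was taken out, with a median Pearson's r of 0.04, and 0 pairs passed a permutation test after Benjamini-Hochberg adjustment. The pair with the lowest p was Hacd3 and Tecr, with Pearson's r = -0.815 (permutation p = 0.00521, adjusted 0.172) and Spearman's rank correlation = -0.814 (permutation p = 0.00123, adjusted 0.0554). Without ERD 1 and ERD 4, the arrays farthest from the median of Hacd3 once diet means were taken out, r was -0.623. The arrays share the reference and the loess step.

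The genes whose pattern was most like that of Elovl4 were Epha4, Slain1 and Nol4, with a root mean square difference of 0.31, 0.32 and 0.33 between their centred log2 ratios and those of Elovl4 over 15 arrays, where Elovl4 itself had a root mean square of 0.75. They were the nearest of 13676 genes with a symbol and a value on every array. Their log2 changes in ERD against STD were -1.11, -0.89 and -1.02 (limma, adjusted p = 0.193, 0.265 and 0.151). Nearest to Hacd1, whose root mean square was 0.23, were Pttg1, Rbm14 and Nhsl1, at 0.08, 0.11 and 0.12, with changes of -0.38, -0.43 and -0.40 in ERD against STD (limma, adjusted p = 0.218, 0.15 and 0.134). Diet means were left in for this choice, so changes like those of Elovl4 and Hacd1 follow from it.

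Other genes of the pathway were read from 6 lists, and 0 of their measured genes were called in any comparison. Of 9 desaturases measured, which insert double bonds, 3 had an unadjusted p under 0.05 in ERD against STD, all lower in ERD, where 14.6% of all genes did. They were Scd2, a stearoyl-CoA desaturase of brain (-0.53 ± 0.15 SE; limma, adjusted p = 0.142), Fads1, the delta-5 desaturase of PUFA synthesis (-0.63 ± 0.23; adjusted p = 0.243), and Scd1 (-0.90 ± 0.38; adjusted p = 0.296). The same 3 had an unadjusted p under 0.05 in ERD against BLD, where 10.4% of all genes did, at -0.46, -0.81 and -0.85 (limma, adjusted p = 0.37, 0.331 and 0.471), while 0 of 9 did in BLD against STD. Both ERD comparisons use the same ERD arrays. The median over the desaturases in ERD against STD was -0.05.

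Among 5 measured partners of the elongation cycle, 0 had an unadjusted p under 0.05 in any comparison, where 10.4% to 14.6% of all genes did. Hsd17b12, the ketoreductase of the second step, was at -0.40 ± 0.26 (SE) in ERD against STD, and Hacd4, the remaining dehydratase, at 0.28 ± 0.17 (limma, adjusted p = 0.5 and 0.448). Elovl3 and Tecrl were not well above background on enough arrays and were not tested. Of 11 genes of malonyl-CoA and saturated fatty acid supply, 1 passed the unadjusted level in ERD against STD, which 14.6% of all genes passed. It was Acaca, which makes malonyl-CoA, at 0.45 ± 0.17 (limma, adjusted p = 0.25). Acly, which makes cytosolic acetyl-CoA, followed at 0.39 ± 0.18 (limma, adjusted p = 0.341).

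Of 9 genes described from the list of peroxisomal shortening and import, 1 passed the unadjusted level in ERD against STD, which 14.6% of all genes passed. It was Pex5, a receptor for protein import, at -0.51 ± 0.23 (SE; limma, adjusted p = 0.32). Acox3, a peroxisomal acyl-CoA oxidase, was at 0.22 ± 0.15 (limma, adjusted p = 0.515). Of 8 measured genes that make or use ceramides, 1 passed that level, against the same 14.6%. It was Ugcg, which makes glucosylceramide, at -0.47 ± 0.15 (limma, adjusted p = 0.182). The ERD and STD arrays of Ugcg did not overlap, as was so for 3.79% of all genes. Cers2, the ceramide synthase of very long chains, was at -0.27 ± 0.18 (limma, adjusted p = 0.519). Of 14 transcriptional regulators 3 passed the unadjusted level, which 14.6% of all genes passed. Nr1h3, the oxysterol receptor LXR alpha, was at 0.44 ± 0.12 without overlap, Rxrg, a retinoid X receptor, at -0.72 ± 0.30, and Srebf1, which drives fatty acid synthesis genes, at -0.36 ± 0.15 (limma, adjusted p = 0.121, 0.29 and 0.307).

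**Figure D4:**
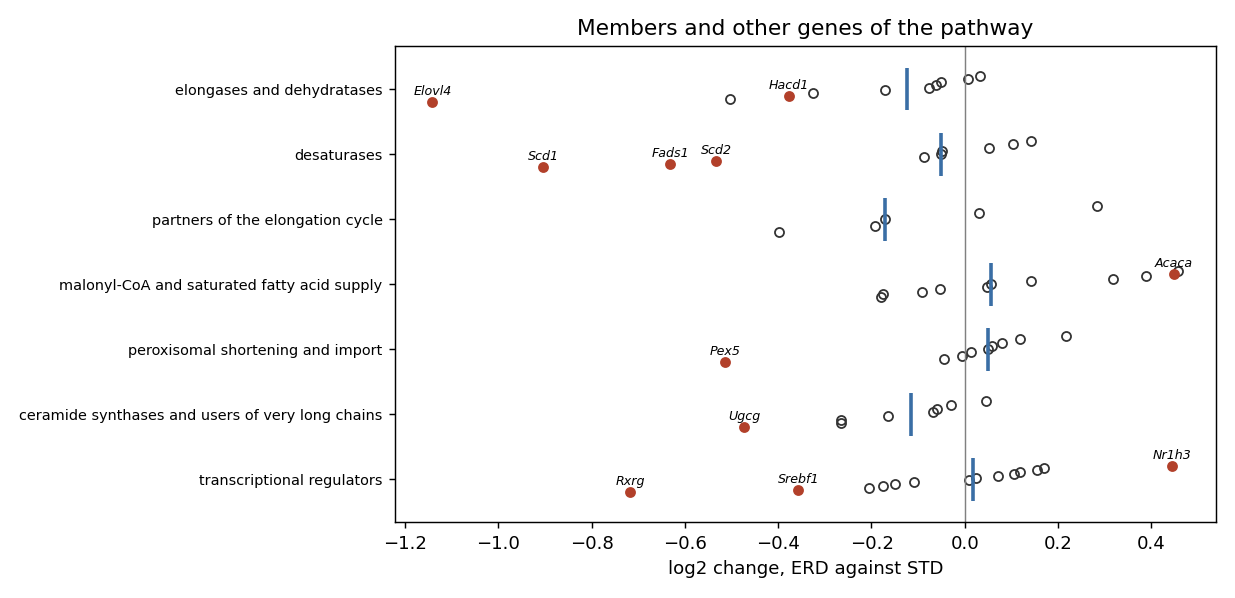
Log2 change in ERD against STD for the 10 members and the measured genes of the 6 pathway lists, with filled red points and names for an unadjusted p under 0.05 and a blue line at each group's median. The medians lie between -0.17 and 0.06, Elovl4 is farthest to the left at -1.14, and 0 of the genes shown passed the adjusted threshold.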

How the data were processed

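The files hold 1 scan per array. The deposited spot intensities are, per the file headers, median pixel intensities of spot and local background in both channels, quantified with Agilent Feature Extraction 11.5.1.1 (version 10.7 in the submitters' processing notes). The deposited log10 ratios of the scanner software, background-subtracted and dye-normalized per the file headers, served as an alternative; the series' value table holds the same values (62976 of 62976 spots equal within 1e-04 on each array, column medians 0). Spot flags are deposited as well, and their outlier spots (0.574%) were left out. Median intensities were corrected by normexp (offset 50) and loess in limma 3.58.1 under R 4.3.3, with the package data.table at 1.17.8. A probe was kept with a Cy5 signal well above background on 5 or more of 15 arrays and 8 or more values. Each symbol took its probe with the highest mean Cy5 signal, which gave 13773 genes with a symbol and 8789 probes without one.

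All comparisons (2-sided p) came from 1 limma model of the 15 arrays, which leaves 12 residual degrees of freedom. The number of arrays limits precision, and the median SE of a change in ERD against STD was 0.163. Nothing in the labels says that arrays hold separate animals, so p-values measure the spread between these samples, which may be technical. Replicate numbers follow accession order. The fit was run on simulated arrays with independent noise and no differences between slides or scan days. That run cannot show how such differences affect the p-values. A few genes of the lists are not reported here and were left out of the lists' counts. The members and lists were chosen with earlier results of these data known. The text names all 10 members with every probe, from each pathway list the genes past the threshold or else the 2 of lowest unadjusted p in ERD against STD, and the 3 genes most like each of the 2 members of lowest F test p; Scd1 and Srebf1 were added after their values were seen. The headers' genome build differs from that of the RefSeq tables (GRCm38.p6), which were used for names and promoters only. Figures were drawn with Python 3.11.15, pandas 2.3.3 and matplotlib 3.10.9.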

Additional observations from a re-analysis of the deposited data

Results flagged for a closer look

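In 4 of the 30 groups of 5 arrays (10 members in 3 diets), 1 array stood apart from the others of its diet by more than Dixon's 95% limit, which chance exceeds in about 1 of 20 groups. Elovl2 on STD 4 was at a log2 ratio of 1.39, below the next STD array at 1.78. Elovl5 on STD 1 was at 0.22, above the next at -0.10. Elovl7 on BLD 3, an array among the least correlated, was at -0.40, below the next at 0.00037. Hacd2 on ERD 5 was at -0.11, above the next at -0.43. These are given as values, and their causes were not tested.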

How the results depend on the processing

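No paired analysis was possible because the labels carry no replicate numbers to pair arrays by. Slides that held several diets were used as a block and for differences within slides. Under 29 alternative settings for 10 members in 3 comparisons, 0 of 290 changes in each comparison passed the threshold, and the counts of members called stayed at 0. The lowest adjusted p was 0.0625 in ERD against STD, 0.225 in BLD against STD and 0.127 in ERD against BLD. The sign turned in 21, 18 and 11 of them, and the cause was not tested. The number of all genes called in ERD against STD, 49, was 0 with median centring and without the 3 least correlated arrays, 1 with slide as a fixed block, 11 with scan day as a block, 101 with slide as a random block, 177 with array weights, 22 with only both diets in the fit and 32 with probes above background on all arrays, and it ran from 5 (without ERD 4) to 168 (without ERD 3) with 1 array left out. The corresponding 2 genes in BLD against STD became 38 with array weights.

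In ERD against STD it turned for Elovl5 at 0.067 with processed signals and 0.0075 with Cy5 alone, for Hacd2 at -0.046 with median centring and -0.014 with Cy5 alone, for Elovl6 at -0.055 with median centring, -0.036 with Cy5 alone and -0.0023 with slide as a fixed block, and for Tecr at 0.26 with that block, 0.24 with array weights and 0.17 without the 3 least correlated arrays. In BLD against STD, median centring gave 0.13 for Elovl1, 0.11 for Elovl2, 0.035 for Elovl4 and 0.069 for Hacd1, and the mean of probes gave 0.039 for Elovl1 and 0.064 for Elovl4. Slide as a fixed block gave 0.28 for Elovl4 and 0.56 for Elovl2, which was 0.089 with slide as a random block, 0.045 with scan day as a block, 0.017 with array weights and 0.0043 without the 3 arrays. In ERD against BLD, Elovl1 was -0.38 with median centring and -0.043 as the mean of probes, Elovl7 -0.055 with median centring, Hacd3 -0.35 with it, -0.073 with array weights and -0.028 without the 3 arrays, Elovl2 0.079 with Cy5 alone and Hacd2 0.020 with processed signals.

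With 1 array left out at a time, the changes that turned ran from -0.33 to 0.22 for Tecr, -0.073 to 0.077 for Elovl6, -0.044 to 0.12 for Hacd2 and -0.13 to 0.0047 for Elovl5 in ERD against STD, from -0.27 to 0.19 for Elovl2 and -0.31 to 0.0091 for Elovl1 in BLD against STD, and from -0.22 to 0.22 for Hacd3 and -0.18 to 0.14 for Elovl1 in ERD against BLD.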
